A study of Rattus norvegicus with 17 samples.

Results

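The comparison described here sets the gastrocnemius, a hindlimb muscle built mostly of fast fibers, of tumor-bearing rats given chemotherapy against that of healthy rats. It uses the 7 libraries titled Tumor_chemo_controldiet and the 5 titled healthy_controldiet, chosen by those titles. Chemotherapy libraries 11 and 12 lay closer to each other in their counts than any other pair within the healthy or within the chemotherapy group. They were summed into 1 sample, so that 11 of the 16 samples of the series were compared, 5 healthy and 6 with chemotherapy. Both groups ate the control diet. The healthy rats carried neither tumor nor treatment, and no group received chemotherapy without a tumor, so the effects of the tumor and of the treatment cannot be told apart in this contrast. The labels name no tumor, drug, dose, time, strain, age or sex. The series also holds 5 samples of tumor-bearing rats without chemotherapy (Tumor_nochemo_controldiet), which shared the fit and appear at the end. The labels do not say outright that each library came from its own rat, so the p-values take the sample, not the rat, as the unit. In the gene test the spread was estimated over all 16 samples.

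A muscle fiber is a long cell packed with sarcomeres and wrapped in a basement membrane, a sheet of type IV collagen, laminin and nidogen that ties the fiber to the connective tissue around it. Fibroblasts, pericytes and the fibers themselves make this matrix. Muscle wasting in cancer is usually described through protein turnover: ubiquitin ligases and autophagy break down contractile protein, and signals through insulin-like growth factor and mTOR set the rate of synthesis on ribosomes. Ribosomal RNA was removed from these libraries without selecting for poly(A) tails, so RNAs without a tail were counted as well.

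Healthy libraries 1, 3 and 4 stood apart from the other samples compared before any test. In a principal component analysis of the 11 samples over the 1000 genes with the highest variance, the leading axis held 54.9% of the variance, and on it these 3 lay at -27.6, -33.4 and -43.4. Healthy libraries 2 and 5 lay at 11.6 and -6.3, and chemotherapy library 11 at -3.1. Libraries 13 to 17 ran from 7.8 to 29.8. The alignment names of the files end in MB for healthy libraries 1 to 4 and chemotherapy library 11, and in VM for healthy library 5 and the 5 other chemotherapy samples, with no meaning given. The suffix thus goes largely with the group. Whatever it stands for cannot be fully told apart from tumor or treatment in the genes that rose or fell below. The share of counts on Rpph1, the RNA subunit of the transfer RNA processing enzyme RNase P, was 1.46%, 1.28% and 1.97% in healthy libraries 1, 3 and 4. It was 0.332% and 0.820% in healthy libraries 2 and 5 and between 0.274% and 0.704% with chemotherapy (two-sided exact permutation p = 0.0173, n = 5 and 6). Outside this contrast, tumor libraries 8 and 10 held 1.09% and 0.857%, and the other tumor libraries 0.353% to 0.501%. High shares were thus not limited to the healthy group. The 20 most abundant genes, led by Myh4, the myosin of the fastest fibers, and by Acta1 and Ckm, expressed in skeletal muscle fibers of all types, held 40.2% ± 3.01 of the counts in healthy muscle and 35.6% ± 1.49 with chemotherapy (SD, exact permutation p = 0.0130). These 20 include Rpph1, whose mean share differed by -0.730 of the -4.62 percentage points, so the 2 tests are not separate results. Total counts ranged from 3020821 to 15719080 per library over named genes.

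**Figure D1:**
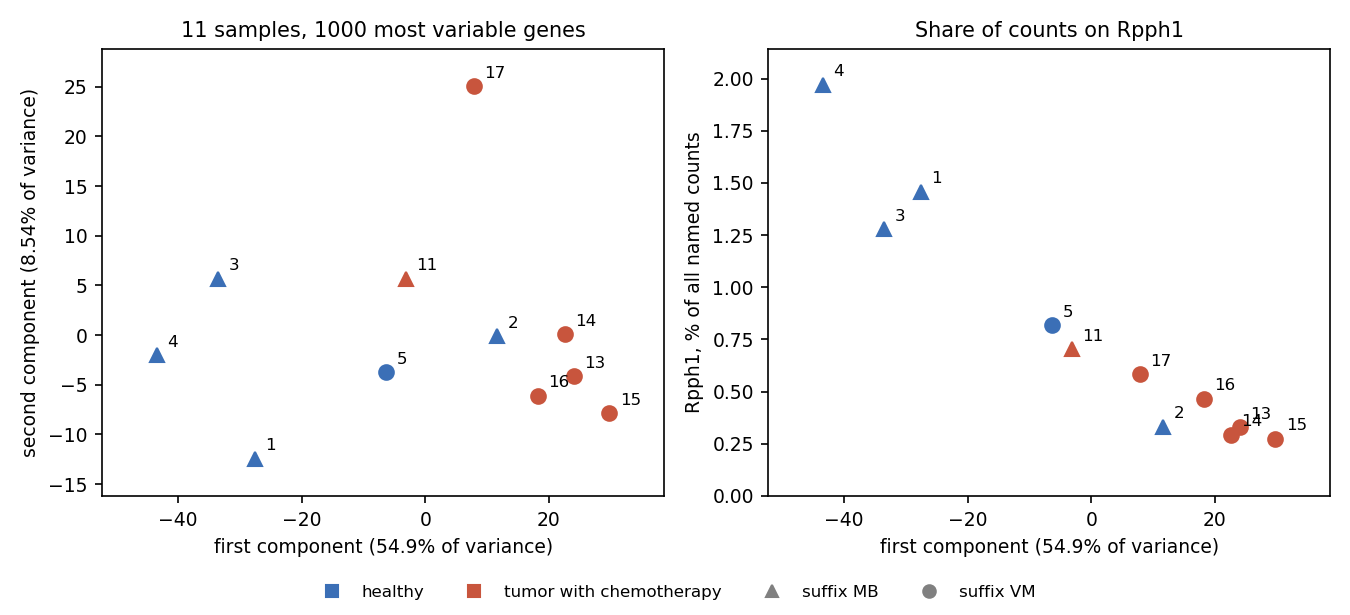
Position of the 11 samples on the first 2 principal components (left) and the percentage of named counts on Rpph1 against the first component (right), 1 point per sample, labelled by library number. Healthy libraries 1, 3 and 4 sit at the left with Rpph1 shares of 1.28% to 1.97%, and the highest share among the other 8 samples is 0.820%.

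Of 11856 genes tested, 865 (7.3%) rose and 760 (6.41%) fell at an adjusted p below 0.05 (edgeR quasi-likelihood test, Benjamini-Hochberg adjustment), and the median log2 fold change over all genes was -0.02. The smallest adjusted p, 0.0261, was shared by 135 genes. The 6 chemotherapy values all lay above the 5 healthy values for 240 genes (2.02%) and all below them for 234 (1.97%). Scaling by total counts in place of TMM gave 1669 higher and 348 lower and moved the median of all genes to 0.12. The counts of called genes in each list below are to be read against the 7.3% of all genes that rose and the 6.41% that fell. The lists were chosen with earlier results of these data known, so these counts describe the lists and do not test them. Every gene below that "rose" or "fell" did so in this test. No gene was called when any 1 of healthy libraries 1, 3 and 4 or chemotherapy libraries 13, 14 and 15 was left out (1487 to 1982 genes in each direction at an unadjusted p below 0.05). The same held with the suffix or 1 surrogate variable in the model, and in the VM libraries alone. With healthy libraries 1, 3 and 4 all left out edgeR called 0 genes in each direction, with 304 genes higher and 281 lower at an unadjusted p below 0.05, and the fold changes from that fit are given below as "without healthy libraries 1, 3 and 4". Levels are CPM, counts over the library total after TMM scaling, healthy values follow the order of libraries 1 to 5, and the 6 chemotherapy values are given as lowest, median and highest.

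**Figure D2:**
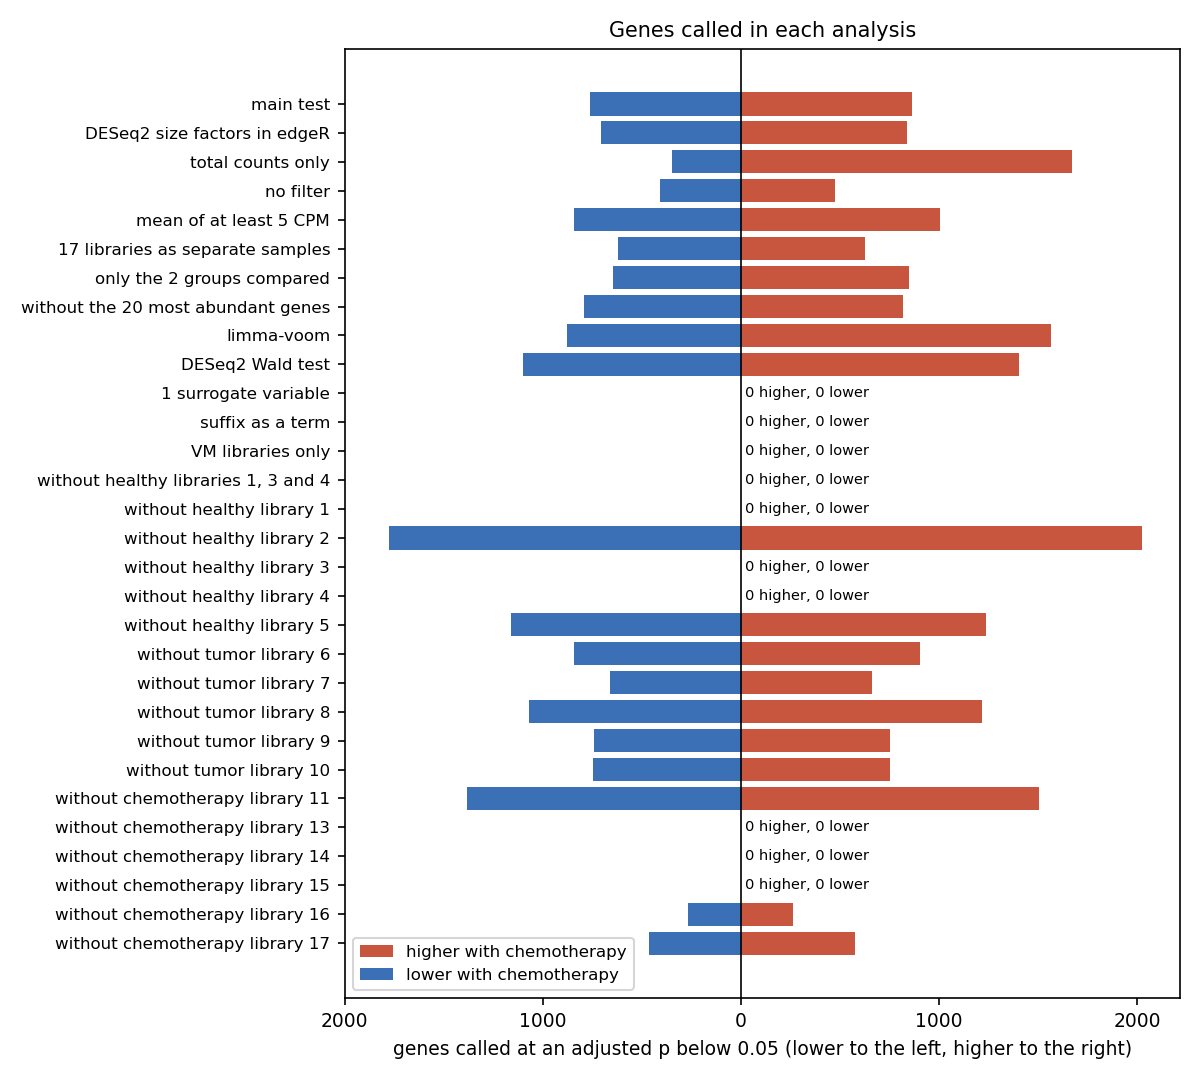
Number of genes called higher (right) and lower (left) with chemotherapy at an adjusted p below 0.05, for the main test and each other analysis. Calls fell to 0 in 10 analyses and reached 2024 higher and 1775 lower without healthy library 2.

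The type IV collagens, the network-forming chains of the basement membrane, fell together. All 5 tested chains, Col4a1 to Col4a5, fell to less than their lowest healthy value in every chemotherapy sample, and all 5 carried the smallest adjusted p of the comparison. Their genes lie in head-to-head pairs on opposite strands in RefSeq's rat annotation (GRCr8). Between the start sites of Col4a1 and Col4a2 on chromosome 16 lie 76 bases, and between those of Col4a3 and Col4a4 on chromosome 9 lie 412 bases. The sequence between the start sites of the first pair is shown because it is the DNA upstream of both genes at once. It spans chr16:84885521-84885596 on the strand of Col4a1, from the base after the start of Col4a2 to the base before the start of Col4a1, with the GC box in capitals.

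Col4a2-Col4a1: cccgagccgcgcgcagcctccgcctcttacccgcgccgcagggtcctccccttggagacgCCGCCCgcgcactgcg

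The motifs searched, on both strands, were GGGCGG (the GC box), CCAAT and TATAAA, none of which overlaps another. The stretch held 1 GC box, on the strand of Col4a2, and no CCAAT or TATAAA, and 78.9% of its bases were G or C. Of all 33469 RefSeq promoters, 18.1% held a GC box in the 76 bases before the start, 13% a CCAAT and 4.61% a TATAAA, and the median G and C content there was 53.9%. The build behind the counts is not given in the sources used here, and no value below comes from these coordinates.

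Col4a1, which with Col4a2 forms the most widespread type IV collagen, counted 465, 378, 611, 604 and 356 CPM in healthy muscle and 162, 195 and 269 CPM with chemotherapy. It fell by 1.24 on the log2 scale (SE 0.21, adjusted p = 0.0261), and the lowest healthy sample lay above the highest chemotherapy sample, library 11. Col4a2 counted 225, 167, 246, 264 and 159.6 CPM against 78.2, 92.5 and 135 CPM (log2 fold change -1.09 ± 0.21 SE, adjusted p = 0.0261). In both genes healthy libraries 2 and 5 were the lowest of the healthy group and library 11 the highest of the chemotherapy group.

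Col4a3, a chain of the mature network at nerve-muscle contacts and in kidney, counted 46.1, 38.4, 59.1, 49.6 and 30.3 CPM in healthy muscle and 14.9, 20.7 and 23.2 CPM with chemotherapy (log2 fold change -1.16 ± 0.20 SE, adjusted p = 0.0261). Its partner Col4a4 counted 84.2, 68.1, 140.2, 124 and 82.8 CPM against 43.9, 50.3 and 65.1 CPM (log2 fold change -0.94 ± 0.19 SE, adjusted p = 0.0261). Col4a5, on the X chromosome, counted 57, 41.2, 81.2, 77.9 and 33.6 CPM against 23.1, 25.4 and 28.7 CPM (log2 fold change -1.2 ± 0.20 SE, adjusted p = 0.0261). Again no chemotherapy sample reached the lowest healthy one in any of the 3 genes. Without healthy libraries 1, 3 and 4 the log2 fold changes of Col4a1 to Col4a5 were -0.84, -0.71, -0.77, -0.54 and -0.55, lower in size and in the same direction. Col4a6 did not pass the filter on low counts.

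The laminins and nidogens, which build the second network of the basement membrane and link it to the first, fell as well. Lamc1, the laminin chain shared by most muscle laminins, counted 573, 451, 649.7, 664 and 417 CPM in healthy muscle and 260.1, 269 and 349.9 CPM with chemotherapy (log2 fold change -0.93 ± 0.18 SE, adjusted p = 0.0261). Lama2, the chain lost in merosin-deficient muscular dystrophy, counted 452, 358, 569, 603 and 396 CPM against 238, 268 and 303 CPM (log2 fold change -0.82 ± 0.17 SE, adjusted p = 0.0261). Lamb1 counted 199, 136, 276, 375 and 188 CPM against 82.2, 103 and 133 CPM (log2 fold change -1.16 ± 0.24 SE, adjusted p = 0.0261). The groups did not overlap for these 3 chains. Lamc1, Lama2 and Lamb1 stood at -0.59, -0.48 and -0.63 on the log2 scale without healthy libraries 1, 3 and 4. Nid1, a linker between laminin and type IV collagen, counted 236, 159, 369.6, 425 and 218 CPM against 108, 132 and 179.6 CPM (log2 fold change -1.06 ± 0.24 SE, adjusted p = 0.0261), and its healthy library 2 lay inside the chemotherapy range. Fras1, a basement membrane adhesion protein, counted 64.8, 42, 43, 68.9 and 46.7 CPM against 23.8, 30.1 and 30.6 CPM (log2 fold change -0.88 ± 0.17 SE, adjusted p = 0.0261), with no overlap. Nid1 and Fras1 stood at -0.48 and -0.62 on the log2 scale without healthy libraries 1, 3 and 4.

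Of 23 tested basement membrane genes, 17 fell and 0 rose (20 lower and 0 higher at an unadjusted p below 0.05), against 6.41% of all genes that fell, and in 10 all chemotherapy values lay below all healthy values (1.97% of all genes). Their median log2 fold change was -0.82, against -0.02 over all genes, and -0.52 without healthy libraries 1, 3 and 4. Across 29 other analyses the median stayed between -0.93 and -0.38. The 5 laminin chains among the 17 were Lama2, Lama4, Lama5, Lamb1 and Lamc1.

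**Figure D3:**
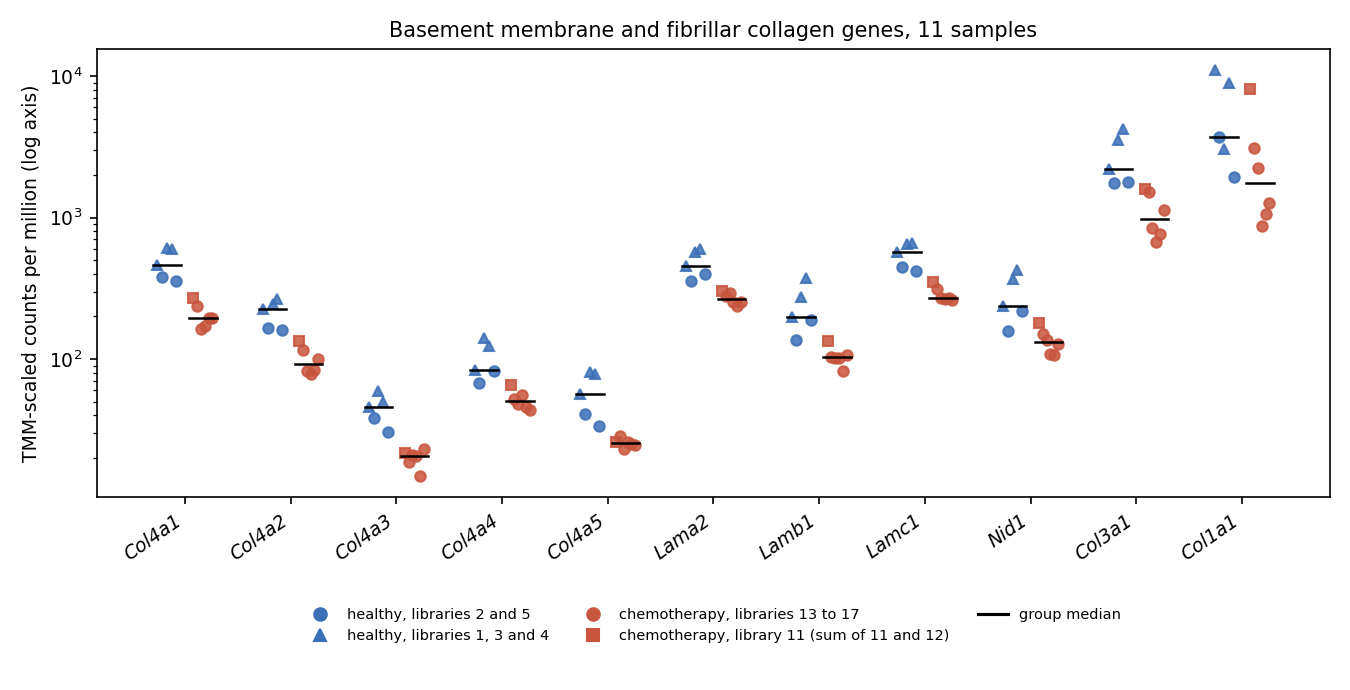
TMM-scaled CPM on a log axis for 9 basement membrane genes and 2 fibrillar collagens, 1 point per sample, with group medians. The 5 type IV collagens, the 3 laminins and Col3a1 do not overlap between the groups, while Col1a1 in library 11 (8156 CPM) lies within the healthy range.

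The fibrillar collagens, the rope-like fibers of the connective tissue, moved in the same direction with more spread. Col3a1, the main chain of fine reticular fibers, counted 2209.6, 1756, 3505, 4208 and 1798 CPM in healthy muscle and 673, 980.1 and 1596 CPM with chemotherapy (log2 fold change -1.31 ± 0.30 SE, adjusted p = 0.0262), with no overlap. Col5a2, which nucleates collagen fibrils, counted 218, 154, 251, 309 and 199 CPM against 100.3, 115 and 174 CPM (log2 fold change -0.88 ± 0.19 SE, adjusted p = 0.0261), and healthy library 2 lay within the chemotherapy range. Col1a1, the main chain of type I collagen, varied most: it counted 11111, 3709, 3072, 8925 and 1938 CPM in healthy muscle and 865, 1765 and 8156 CPM with chemotherapy, and did not pass the test (log2 fold change -1.04 ± 0.61 SE, adjusted p = 0.226). Its highest chemotherapy value came from library 11 and its range overlapped the healthy range widely. Without library 11 the log2 fold change of Col1a1 was -1.74 (adjusted p = 0.0368). Col3a1 and Col5a2 stood at -0.71 and -0.52 on the log2 scale without healthy libraries 1, 3 and 4. Of 18 tested fibrillar and other collagens, 8 fell and 0 rose, where 6.41% of all genes fell (11 lower and 0 higher at an unadjusted p below 0.05). The 8 were Col3a1, Col5a1, Col5a2, Col5a3, Col6a1, Col6a2, Col15a1 and Col18a1. The list's median was -0.80, and -0.40 without healthy libraries 1, 3 and 4.

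Among 41 tested matrix glycoproteins and remodeling enzymes, 10 fell and 0 rose, where 6.41% of all genes fell and 7.3% rose (18 lower and 0 higher at an unadjusted p below 0.05; median -0.47, and -0.19 without healthy libraries 1, 3 and 4). Fbn1, which encodes the microfibril protein fibrillin-1, counted 725, 496, 1123, 1362 and 681 CPM in healthy muscle and 330.0, 381 and 575 CPM with chemotherapy (log2 fold change -1.06 ± 0.27 SE, adjusted p = 0.0289). Fn1, fibronectin, counted 601, 419, 732, 885 and 469.9 CPM against 243, 295 and 540.3 CPM (log2 fold change -0.91 ± 0.29 SE, adjusted p = 0.0478). Loxl2, which cross-links collagen, fell by 1.01 and Mmp14, a membrane-bound collagenase, by 0.87 on the log2 scale. In each of these 4 genes library 11 was the highest chemotherapy sample and the groups overlapped. Fbn1, Fn1, Loxl2 and Mmp14 stood at -0.49, -0.43, -0.62 and -0.39 on the log2 scale without healthy libraries 1, 3 and 4.

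Genes that mark the cells around the fibers were lower for fibroblasts and vessel walls and mixed for endothelium. Fewer cells of a type and less RNA per cell cannot be told apart in bulk tissue. Among the 19 tested markers of fibroblasts and fibro-adipogenic progenitors, 8 fell and 0 rose, against 6.41% of all genes that fell (13 lower and 0 higher at an unadjusted p below 0.05; median -0.63, and -0.23 without healthy libraries 1, 3 and 4). Cd34, a surface protein of progenitor and endothelial cells, counted 98, 59.6, 135, 143 and 91.7 CPM in healthy muscle and 39.3, 49.9 and 59.7 CPM with chemotherapy (log2 fold change -1.06 ± 0.22 SE, adjusted p = 0.0261). Pdgfra, the receptor that defines fibro-adipogenic progenitors, counted 86.9, 52.7, 117, 129 and 83.7 CPM against 42.1, 60.8 and 76.3 CPM (log2 fold change -0.69 ± 0.22 SE, adjusted p = 0.044). Cd34 and Pdgfra stood at -0.59 and -0.23 on the log2 scale without healthy libraries 1, 3 and 4. The markers of this list summed to 4808 to 14450 CPM in healthy and 2821 to 11490 CPM in chemotherapy samples, and none was at 0 in all 11 samples. The highest sum of each group was mostly Col1a1, at 11111 of 14450 CPM in healthy library 1 and 8156 of 11490 CPM in library 11. The part of these markers in the lower matrix genes was not tested.

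Of 16 pericyte and smooth muscle markers, 7 fell and 0 rose, against 6.41% of all genes that fell (9 lower and 0 higher at an unadjusted p below 0.05; median -0.49, and -0.34 without healthy libraries 1, 3 and 4). Cspg4, the pericyte proteoglycan NG2, counted 57.4, 44.5, 59, 79.1 and 70.4 CPM in healthy muscle and 25, 29 and 42.9 CPM with chemotherapy (log2 fold change -1.01 ± 0.22 SE, adjusted p = 0.0261), with no overlap. Notch3, a receptor of vascular smooth muscle, fell by 1.11 and Acta2, smooth muscle actin, by 1.17 on the log2 scale. Cspg4, Notch3 and Acta2 stood at -0.90, -0.68 and -0.58 on the log2 scale without healthy libraries 1, 3 and 4. Des, counted in this list, is also a major filament protein of muscle fibers and is described with them. The listed markers, Des included, summed to 6111 to 11830 CPM in healthy and 4252 to 6670 CPM in chemotherapy samples. Most of the sum was Des, at 10492 of 11830 CPM in healthy library 1 and 2802 of 4252 CPM in chemotherapy library 13. The sum therefore says little about vessel walls.

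The 25 tested endothelial markers split, with 4 lower and 3 higher and a median of -0.24 (-0.11 without healthy libraries 1, 3 and 4). The lowest of the 4 was Eln, the matrix protein elastin, which is also counted among the matrix glycoproteins above. Tie1, an endothelial receptor kinase, counted 45.9, 36.8, 44.3, 52.5 and 46.2 CPM in healthy muscle and 24, 27.4 and 36.6 CPM with chemotherapy (log2 fold change -0.64 ± 0.14 SE, adjusted p = 0.0261). Aplnr, the apelin receptor, counted 17.4, 15.4, 22.4, 16.5 and 15 CPM against 9.00, 10.6 and 11.8 CPM (log2 fold change -0.73 ± 0.16 SE, adjusted p = 0.0261), and neither gene overlapped between the groups. Fabp4, a fatty acid carrier of capillaries and fat cells, went the other way at 32.1, 70.6, 40.7, 37.3 and 64.6 CPM against 72.2, 84.9 and 154 CPM (log2 fold change 0.96 ± 0.25 SE, adjusted p = 0.0294). Emcn, the sialomucin endomucin of capillaries and veins, rose by 0.72 on the log2 scale, and both rose without overlap. Tie1, Aplnr, Fabp4 and Emcn stood at -0.52, -0.53, 0.50 and 0.54 on the log2 scale without healthy libraries 1, 3 and 4. The summed endothelial markers overlapped, at 609 to 656.8 CPM in healthy and 520.1 to 679.3 CPM in chemotherapy samples.

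Immune and blood cell markers gave few calls. Of 20 macrophage markers Aif1 rose and 0 fell (1 higher and 3 lower at an unadjusted p below 0.05; median -0.08, and 0.23 without healthy libraries 1, 3 and 4), and their sums overlapped at 380.3 to 690.5 and 372.7 to 668 CPM. Aif1, a calcium-binding protein of macrophages, counted 2.46, 4.12, 2.58, 2.23 and 4.42 CPM in healthy muscle and 4.67, 5.41 and 9.32 CPM with chemotherapy (log2 fold change 0.99 ± 0.30 SE, adjusted p = 0.0382), without overlap. Aif1 stood at 0.52 on the log2 scale without healthy libraries 1, 3 and 4. Csf1r, the receptor for the macrophage growth factor, was at -0.65 on the log2 scale and did not pass the test (adjusted p = 0.074). None of 6 class II antigen presentation genes was called (0 at an unadjusted p below 0.05), nor any of 6 lymphocyte and granulocyte markers (2 higher and 1 lower). Ptprc, the pan-leukocyte marker CD45, counted 4.72, 6.86, 11.9, 12.2 and 12 CPM in healthy muscle and 9.82, 11.9 and 63.7 CPM with chemotherapy, the highest from library 17. The log2 fold change of Ptprc was 1.08 (adjusted p = 0.0837), and 0.32 without library 17. The 5 tested red blood cell genes were all negative (median -0.88) with 0 called and 4 lower at an unadjusted p below 0.05. Hba-a1, an alpha globin, counted 305, 155, 352, 485 and 253 CPM against 43.9, 146 and 304 CPM (adjusted p = 0.0663).

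Satellite cells are the stem cells under the basement membrane. Of 21 genes of satellite cells and myogenesis 2 fell, a share near the 6.41% over all genes, and the 2 are given as single genes. Pax7, the defining transcription factor of these cells, counted 5.48, 2.47, 5.64, 5.47 and 4.05 CPM in healthy muscle and 0.907, 1.63 and 2.69 CPM with chemotherapy (log2 fold change -1.34 ± 0.36 SE, adjusted p = 0.0303), and healthy library 2 lay within the chemotherapy range. Megf10, a receptor of satellite cells, counted 13, 17.6, 15.4, 13.4 and 8.96 CPM against 2.85, 5.81 and 10.6 CPM (log2 fold change -1.16 ± 0.25 SE, adjusted p = 0.0261). Pax7 and Megf10 stood at -0.85 and -1.1 on the log2 scale without healthy libraries 1, 3 and 4. The other 19 were not called (1 gene of the 21 higher and 8 lower at an unadjusted p below 0.05), and the list's median of -0.44 became -0.06 without healthy libraries 1, 3 and 4.

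**Figure D4:**
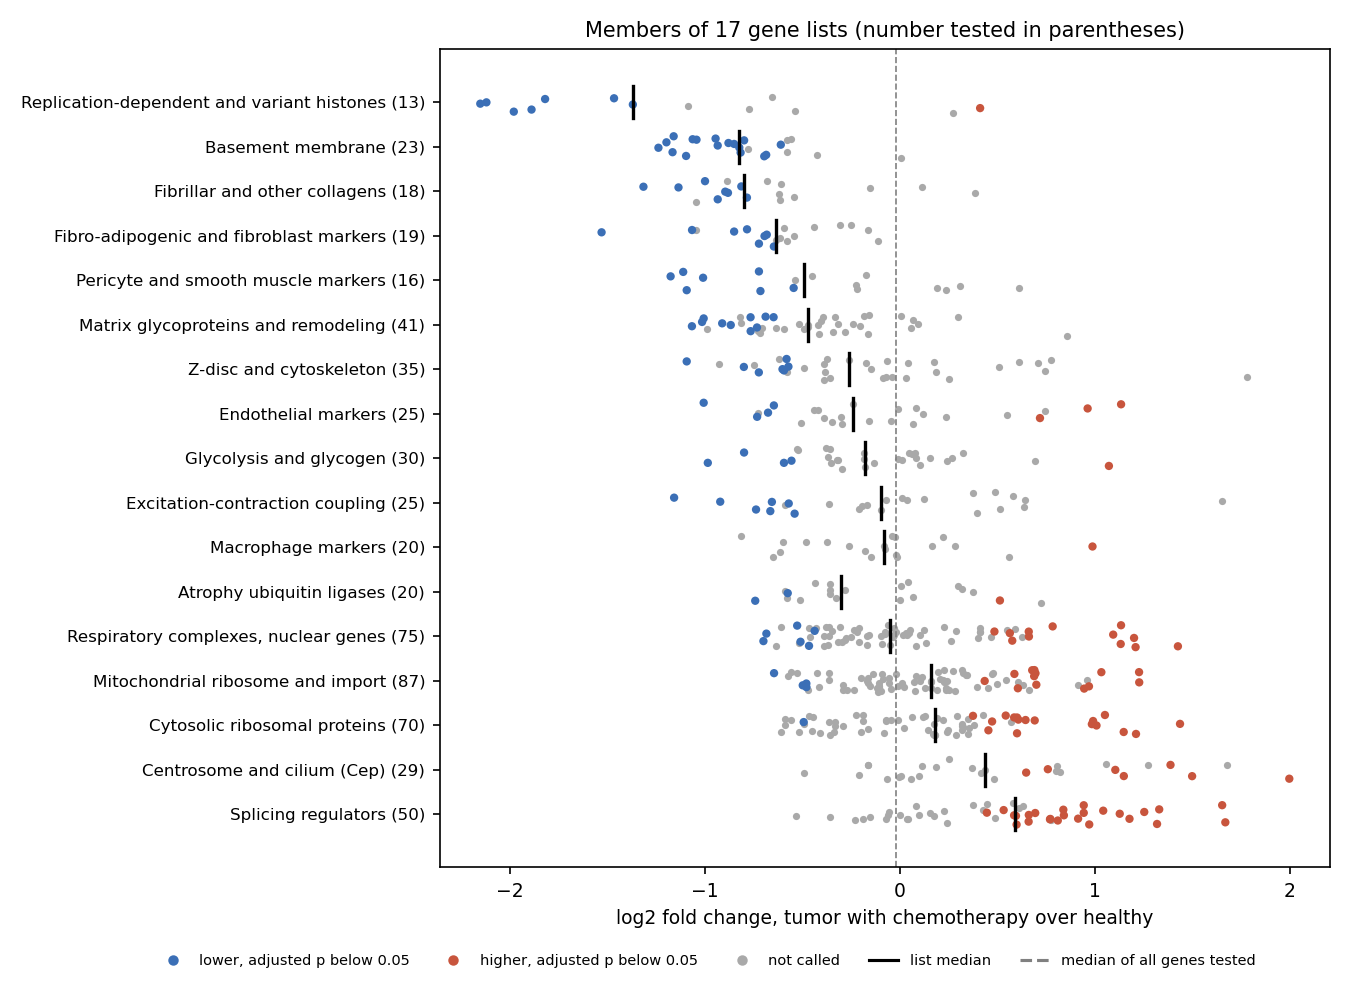
Log2 fold change of each tested member of 17 gene lists, chemotherapy over healthy, with the list medians (black) and the median of all 11856 genes (dashed, -0.02). Matrix lists lie left of the dashed line with 17 of 23 basement membrane genes called, and splicing regulators lie right of it with 25 of 50 called.

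RNAs without a poly(A) tail were among the lowest of the comparison, and these values moved with the samples that stood apart. Rpph1 counted 17264, 3552, 13534, 20920 and 8029.5 CPM in healthy muscle and 2578, 3951 and 6867 CPM with chemotherapy (log2 fold change -1.56 ± 0.41 SE, adjusted p = 0.0301). RNase_MRP, which processes ribosomal RNA, counted 3189.8, 752, 2656, 3657 and 1264 CPM against 468, 843 and 1436 CPM (log2 fold change -1.38 ± 0.38 SE, adjusted p = 0.0325). Vault, the RNA of the vault particle, counted 73.3, 15.7, 51.3, 77.1 and 43.6 CPM against 6.85, 10.1 and 20.3 CPM (log2 fold change -2.1 ± 0.46 SE, adjusted p = 0.0261). In all 3 genes healthy library 2 fell within the chemotherapy range, and without healthy libraries 1, 3 and 4 the log2 fold changes were -0.43, -0.19 and -1.3. By class, 9 of 24 small nucleolar RNAs and 10 of 25 miscellaneous RNAs fell, against 6.41% of all genes. The other small noncoding RNA genes, without Rpph1, took 0.986% ± 0.420 of counts in healthy muscle and 0.496% ± 0.0988 with chemotherapy (SD, n = 5 and 6, exact permutation p = 0.0152). What set these shares was not tested.

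Replication-dependent histone messages end in a stem loop in place of a poly(A) tail. Of 13 tested histone genes 7 fell and 1 rose, with a median of -1.37 that became -0.25 without healthy libraries 1, 3 and 4. Hist1h2bo, a core histone, counted 10.0, 4.12, 12.1, 33.3 and 7.12 CPM in healthy muscle and 1.25, 3.39 and 6.27 CPM with chemotherapy (log2 fold change -1.98 ± 0.47 SE, adjusted p = 0.0271). H1f4, a linker histone, counted 182, 55.2, 207, 285 and 108 CPM against 46.4, 61.4 and 100.2 CPM (log2 fold change -1.37 ± 0.38 SE, adjusted p = 0.0334). The gene that rose, H3f3a, encodes the replacement histone H3.3, whose message carries a poly(A) tail, and counted 61.4, 63.7, 70.5, 63.8 and 77.4 CPM against 83.2, 84.7 and 103 CPM (log2 fold change 0.41 ± 0.11 SE, adjusted p = 0.0308), with no overlap. Hist1h2bo, H1f4 and H3f3a stood at -0.73, -0.34 and 0.34 on the log2 scale without healthy libraries 1, 3 and 4. Histone genes have near-identical copies, and how shared reads were counted is not given, so single histone values are uncertain.

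Of 50 tested splicing regulators 25 rose and 0 fell (33 higher and 1 lower at an unadjusted p below 0.05), against 7.3% of all genes that rose. By number this was the most called genes in any of the 49 lists. By share it was not, as 17 of 23 basement membrane genes were called. The lists were chosen with earlier results of these data known, so their order is descriptive only. Tra2b, which activates exons through purine-rich enhancers, counted 13, 26.9, 18.1, 17.2 and 21.6 CPM in healthy muscle and 26.9, 39 and 40.5 CPM with chemotherapy (log2 fold change 0.94 ± 0.18 SE, adjusted p = 0.0261). Tra2a, its paralog, counted 6.80, 7.41, 7.26, 5.60 and 6.88 CPM against 9.87, 12.3 and 17 CPM (log2 fold change 0.92 ± 0.20 SE, adjusted p = 0.0261). Hnrnpm, an RNA-binding repressor and activator of exons, counted 18.7, 41.5, 18.2, 16.1 and 32.4 CPM against 41.6, 67.3 and 82.9 CPM (log2 fold change 1.33 ± 0.27 SE, adjusted p = 0.0261). Tra2a and Hnrnpm did not overlap between the groups, healthy library 2 came level with library 11 in Tra2b, and the lowest chemotherapy value of all 3 genes came from library 11. Tra2b, Tra2a and Hnrnpm stood at 0.62, 0.84 and 0.77 on the log2 scale without healthy libraries 1, 3 and 4.

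Further members that rose were Luc7l3, a partner of the U1 particle that picks the start of introns, at 1.67 on the log2 scale, and the kinase Clk1, which phosphorylates SR proteins, at 1.25. Rbfox1, the splicing factor of muscle and brain, counted 119, 174, 78.5, 58.6 and 124 CPM in healthy muscle and 152, 239 and 263 CPM with chemotherapy (log2 fold change 0.97 ± 0.26 SE, adjusted p = 0.0303). Hnrnph1 rose by 1.13 and the helicase Ddx5 by 0.81. In Luc7l3, Clk1, Rbfox1, Hnrnph1 and Ddx5 healthy library 2 was the highest healthy sample and overlapped the chemotherapy range. Luc7l3, Clk1, Rbfox1, Hnrnph1 and Ddx5 stood at 1.13, 0.68, 0.54, 0.70 and 0.47 on the log2 scale without healthy libraries 1, 3 and 4. The list's median was 0.59, and 0.31 without healthy libraries 1, 3 and 4.

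The lists of centrosome genes and of chromatin regulators also held rises and no fall. Of 29 genes of the centrosome and cilium 7 rose and 0 fell (13 higher and 1 lower at an unadjusted p below 0.05; median 0.44, and 0.09 without healthy libraries 1, 3 and 4). Ofd1, a protein of centriole ends, counted 4.91, 7.14, 2.48, 1.01 and 4.91 CPM in healthy muscle and 7.72, 10.5 and 13.3 CPM with chemotherapy (log2 fold change 1.5 ± 0.36 SE, adjusted p = 0.0271), with no overlap. Cep290, a gatekeeper of the cilium, counted 1.7, 12.4, 1.91, 1.89 and 2.09 CPM against 5.52, 14 and 22 CPM (log2 fold change 2.0 ± 0.55 SE, adjusted p = 0.0329), where healthy library 2 stood alone above the other 4 healthy samples. Ofd1 and Cep290 stood at 0.86 and 1.06 on the log2 scale without healthy libraries 1, 3 and 4. Of 42 chromatin and transcription coregulators 6 rose and 0 fell (14 higher and 2 lower at an unadjusted p below 0.05), among them Atrx at 1.45 and Phip at 1.1, and the median of 0.22 turned to -0.09 without those 3 healthy libraries.

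Leaving out called genes that averaged under 5 CPM, the largest rises included Pin4, a peptidyl-prolyl isomerase, at 2.64, 7.96, 0.956, 1.15 and 4.42 CPM in healthy muscle and 8.94, 16.3 and 20.6 CPM with chemotherapy (log2 fold change 2.33 ± 0.47 SE, adjusted p = 0.0261). Zfp110, a zinc finger protein and with Cd1d1 among the 10 genes with the smallest p, counted 12.8, 17.6, 10.4, 9.66 and 13.9 CPM against 20.9, 25.5 and 42.8 CPM (log2 fold change 1.2 ± 0.22 SE, adjusted p = 0.0261). Cd1d1, a lipid antigen-presenting molecule, counted 42.5, 43.7, 32.7, 21.3 and 23.9 CPM against 47.7, 72.7 and 99.1 CPM (log2 fold change 1.17 ± 0.23 SE, adjusted p = 0.0261). None of the 3 overlapped between the groups, and their log2 fold changes without healthy libraries 1, 3 and 4 were 1.35, 0.89 and 1.13. On the falling side, Lrrc41, a substrate adaptor of a ubiquitin ligase, counted 58.4, 51.1, 68.1, 61.2 and 38.9 CPM against 26.1, 29.4 and 35.1 CPM (log2 fold change -0.88 ± 0.16 SE, adjusted p = 0.0261), again with no overlap. Lrrc41 stood at -0.56 on the log2 scale without healthy libraries 1, 3 and 4.

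Ribosomal protein genes were higher in part. Of 70 tested entries, which cover 66 genes, 17 rose and 1 fell, and 20 had all chemotherapy values above all healthy values (2.02% of all genes did). Rpl5, a large-subunit protein that also restrains Mdm2, counted 115, 284, 122, 78.7 and 247 CPM in healthy muscle and 303, 486 and 537 CPM with chemotherapy (log2 fold change 1.44 ± 0.31 SE, adjusted p = 0.0261). Rps24 counted 64.8, 134, 82.8, 48.6 and 111 CPM against 140.1, 196 and 236 CPM (log2 fold change 1.15 ± 0.25 SE, adjusted p = 0.0261). In both genes healthy libraries 2 and 5 were the highest healthy samples, library 11 the lowest chemotherapy sample, and the groups did not overlap. Rpl5 and Rps24 stood at 0.78 and 0.67 on the log2 scale without healthy libraries 1, 3 and 4.

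Further members rose by less. Rps23, a protein of the decoding centre, counted 138, 160.4, 135, 139 and 162 CPM in healthy muscle and 189, 229.7 and 249 CPM with chemotherapy (log2 fold change 0.60 ± 0.13 SE, adjusted p = 0.0261). Rpl37a counted 178, 192, 209.5, 196 and 205 CPM against 245, 272 and 287 CPM (log2 fold change 0.46 ± 0.11 SE, adjusted p = 0.0279). Every chemotherapy value lay above every healthy value in both genes, which held within narrow ranges in healthy muscle. Rpl27 was the member that fell, from 289.6, 191, 302, 383 and 229 CPM to 169.8, 204 and 212 CPM (log2 fold change -0.49 ± 0.16 SE, adjusted p = 0.048), with overlap. Rps23, Rpl37a and Rpl27 stood at 0.46, 0.44 and -0.08 on the log2 scale without healthy libraries 1, 3 and 4. The list's median was 0.18 with all samples and 0.18 without healthy libraries 1, 3 and 4, and ranged from 0.14 to 0.32 over the other analyses. As a share of counts, ribosomal protein genes took 1.44% ± 0.163 in healthy muscle and 1.71% ± 0.0926 with chemotherapy (SD, n = 5 and 6, exact permutation p = 0.00866). Ribosomal protein genes have processed copies across the genome, so reads shared with them make single values uncertain.

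Translation factors split. Of 31 tested, 6 rose and 4 fell, with a median log2 fold change of -0.08 (-0.09 without healthy libraries 1, 3 and 4). All 6 that rose act in initiation. Eif2s1, the regulated alpha subunit of eIF2, stood at 27.6, 34.6, 19.9, 14.2 and 34.5 CPM in healthy muscle and 37.7, 48.3 and 58.3 CPM with chemotherapy (log2 fold change 0.91 ± 0.21 SE, adjusted p = 0.0261). The others were Eif2s2, Eif2s3, Eif1a, Eif4a2 and Eif5. The 4 that fell were Eif3i, Eif5a and the elongation factors Eef2 and Eef1a2. Eef2, which moves the ribosome along the message, counted 4079, 2464, 4504, 4389.6 and 3452 CPM against 1784, 2289 and 3149 CPM (log2 fold change -0.67 ± 0.21 SE, adjusted p = 0.0425). Eef1a2, the muscle form of the factor that delivers transfer RNA, counted 2606, 1431, 1982, 2373 and 1481 CPM against 1005, 1086 and 1445 CPM (log2 fold change -0.78 ± 0.19 SE, adjusted p = 0.0271). Both elongation factors overlapped between the groups, where healthy library 2 lay below chemotherapy library 11. Eif2s1, Eef2 and Eef1a2 stood at 0.49, -0.31 and -0.34 on the log2 scale without healthy libraries 1, 3 and 4.

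**Figure D5:**
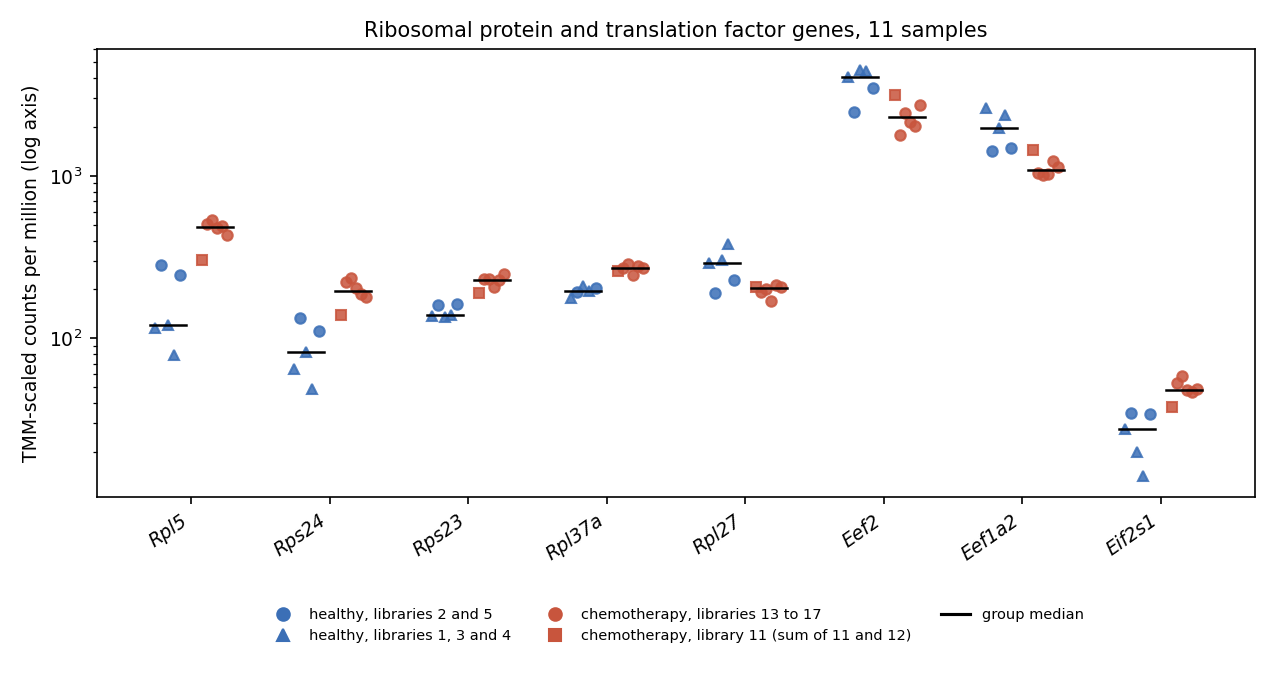
TMM-scaled CPM on a log axis for 5 ribosomal protein genes and 3 translation factors, 1 point per sample, with group medians. Rpl5, Rps24, Rps23, Rpl37a and Eif2s1 do not overlap between the groups, and Rpl27, Eef2 and Eef1a2, which fell, do.

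Upstream of the ribosome, 4 of 24 genes of insulin, IGF and mTOR signaling fell and 1 rose. Mtor, the growth kinase itself, counted 153, 131, 127, 135 and 137 CPM in healthy muscle and 86.5, 99.8 and 115 CPM with chemotherapy (log2 fold change -0.45 ± 0.14 SE, adjusted p = 0.0455). Tsc2, its inhibitor, counted 132, 78.3, 107, 120.3 and 82.8 CPM against 49.9, 57.7 and 73.7 CPM (log2 fold change -0.82 ± 0.20 SE, adjusted p = 0.0271). Both fell without overlap, the kinase and its brake alike. Mtor and Tsc2 stood at -0.42 and -0.45 on the log2 scale without healthy libraries 1, 3 and 4. Rptor and Akt1 fell by 0.50 and 0.45, and Pik3r1, a regulatory subunit of PI3 kinase, rose by 0.54. Igf1, the growth factor, counted 20.4, 14.8, 14.5, 23.2 and 18.9 CPM against 12.1, 18.5 and 22.4 CPM and was not called (log2 fold change -0.02 ± 0.19 SE, adjusted p = 0.949).

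Genes of mitochondrial ribosomes and protein import gave 13 rises and 4 falls of 87 tested, where 7.3% of all genes rose and 6.41% fell, with a median of 0.16 and 0.15 without healthy libraries 1, 3 and 4. Tomm7, a small subunit of the outer membrane entry pore, counted 28.5, 43.9, 26.6, 24 and 29.8 CPM in healthy muscle and 50.6, 58.5 and 64.1 CPM with chemotherapy (log2 fold change 0.95 ± 0.19 SE, adjusted p = 0.0261). Mrps26, a protein of the small mitochondrial ribosome subunit, counted 7.56, 11.3, 10.2, 11.9 and 11.2 CPM against 14.2, 16.3 and 21.2 CPM (log2 fold change 0.70 ± 0.15 SE, adjusted p = 0.0261). Neither gene overlapped between the groups. Tomm7 and Mrps26 stood at 0.67 and 0.60 on the log2 scale without healthy libraries 1, 3 and 4. The 13 mitochondrially encoded entries are listed at 0 in every library, so only nuclear genes describe the respiratory chain.

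Nuclear genes of the respiratory complexes were mixed, with 12 of 75 entries higher, 6 lower and a median of -0.05 (0.06 without healthy libraries 1, 3 and 4). Cox7b, a small subunit of cytochrome oxidase, counted 76.5, 254, 61, 46.7 and 154 CPM in healthy muscle and 219.7, 312 and 394 CPM with chemotherapy (log2 fold change 1.43 ± 0.43 SE, adjusted p = 0.0387). Cycs, cytochrome c, rose by 1.1 on the log2 scale. Ndufs8, an iron-sulfur subunit of complex I, fell from 260.1, 152, 264, 370.4 and 185 CPM to 128, 153 and 185 CPM (log2 fold change -0.68 ± 0.19 SE, adjusted p = 0.0334). All 3 overlapped, with healthy library 2 inside the chemotherapy range. Cox7b, Cycs and Ndufs8 stood at 0.63, 0.51 and -0.14 on the log2 scale without healthy libraries 1, 3 and 4. In the citric acid cycle list, 4 of 26 rose and 2 fell, among them Mdh2, malate dehydrogenase, at 543, 439.9, 489, 455 and 405 CPM against 308, 331 and 399 CPM (log2 fold change -0.45 ± 0.12 SE, adjusted p = 0.029) with no overlap. Acadm, which starts the oxidation of medium-chain fatty acids, rose by 0.99. Mdh2 and Acadm stood at -0.31 and 0.47 on the log2 scale without healthy libraries 1, 3 and 4. Ppargc1a, the regulator of mitochondrial biogenesis, was at 0.32 and Pdk4, which holds back pyruvate oxidation, at 0.61, neither called (adjusted p = 0.263 and 0.327).

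Ckm and Aldoa, among the most abundant RNAs of the muscle, fell, and both moved with the samples that stood apart. Of 30 glycolysis and glycogen genes 4 fell and 1 rose. Ckm, muscle creatine kinase, counted 61085, 29615, 56570, 63036 and 31398 CPM in healthy muscle and 20432, 26721 and 38331 CPM with chemotherapy (log2 fold change -0.82 ± 0.25 SE, adjusted p = 0.0392). Aldoa, the muscle aldolase, counted 39240, 21441, 38371, 35404 and 21907 CPM against 15041, 16977 and 24397 CPM (log2 fold change -0.80 ± 0.21 SE, adjusted p = 0.0308). Healthy libraries 2 and 5 lay inside the chemotherapy range in both genes, and the log2 fold changes without healthy libraries 1, 3 and 4 were -0.16 and -0.27. Hk1, a hexokinase found outside mature fibers as well, counted 17, 11.5, 16.2, 19 and 14.9 CPM against 6.54, 6.88 and 11.1 CPM (log2 fold change -0.98 ± 0.22 SE, adjusted p = 0.0261) and did not overlap. Hk1 stood at -0.73 on the log2 scale without healthy libraries 1, 3 and 4.

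Contractile genes gave few calls. Myh4, the myosin of the fastest fibers and the most abundant gene, counted 107840, 120220, 59659, 60784 and 87215 CPM in healthy muscle and 74256, 84770 and 98089 CPM with chemotherapy (adjusted p = 0.99). Myh7, the slow myosin, was at -0.38 (adjusted p = 0.265) and Tnnt1, slow troponin T, at 0.79 (adjusted p = 0.0574). Of 13 slow-fiber genes none was called (5 higher and 1 lower at an unadjusted p below 0.05), and Myh2 did not pass the filter. Among 14 fast-fiber genes 1 rose and 2 fell. Mylk2, the myosin light chain kinase of skeletal muscle, counted 2089, 1796, 1606, 1506 and 2015 CPM against 978, 1311 and 1479 CPM (log2 fold change -0.48 ± 0.15 SE, adjusted p = 0.0403). Myoz3, a Z-disc protein of fast fibers, rose by 0.54 without overlap, and its relative Myoz1 fell by 0.65 on the log2 scale, with overlap. Mylk2, Myoz3 and Myoz1 stood at -0.56, 0.45 and -0.12 on the log2 scale without healthy libraries 1, 3 and 4.

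The Z-disc anchors the thin filaments, and 7 of 35 genes of the Z-disc and cytoskeleton fell and 0 rose, where 6.41% of all genes fell and 7.3% rose (12 lower and 3 higher at an unadjusted p below 0.05). Flnc, the filamin of muscle, counted 2793, 2467, 1900.3, 2853 and 3064 CPM in healthy muscle and 1166, 1454 and 1860.5 CPM with chemotherapy (log2 fold change -0.80 ± 0.17 SE, adjusted p = 0.0261), without overlap. Its log2 fold change was -0.88 without healthy libraries 1, 3 and 4. Synpo2l, a Z-disc actin organizer, counted 182, 150.5, 159.7, 152 and 192 CPM against 87.1, 117 and 125 CPM (log2 fold change -0.58 ± 0.14 SE, adjusted p = 0.0271), also without overlap, and was at -0.62 without those libraries. Des, the intermediate filament desmin, counted 10492, 4386, 9509, 9717 and 6482 CPM against 2802, 3496 and 5424 CPM (log2 fold change -1.09 ± 0.26 SE, adjusted p = 0.0271), with healthy library 2 inside the chemotherapy range. Des stood at -0.51 on the log2 scale without healthy libraries 1, 3 and 4. Bag3, Plec, Pdlim7 and Obsl1 also fell. The list's median was -0.26 with all samples, -0.32 without healthy libraries 1, 3 and 4 and -0.36 in the VM libraries, and it was negative in all other analyses.

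The dystrophin complex, which ties the cytoskeleton to the laminin of the basement membrane, moved in both directions, with 4 of 25 genes higher and 4 lower. Dag1, dystroglycan, the receptor for laminin, counted 427, 357, 407, 418 and 356 CPM in healthy muscle and 238, 270.4 and 319.8 CPM with chemotherapy (log2 fold change -0.53 ± 0.13 SE, adjusted p = 0.0271). Sgca, alpha-sarcoglycan, counted 247, 174, 221, 243 and 166 CPM against 132, 145 and 159 CPM (log2 fold change -0.53 ± 0.14 SE, adjusted p = 0.0308), and Dysf, the membrane repair protein dysferlin, 332, 225, 237, 309.8 and 209 CPM against 138, 158 and 204 CPM (log2 fold change -0.65 ± 0.17 SE, adjusted p = 0.029). None of the 3 overlapped. Dmd, dystrophin, rose from 176, 525, 91.1, 97.6 and 259 CPM to 313, 861 and 991 CPM (log2 fold change 1.68 ± 0.48 SE, adjusted p = 0.0352), with healthy library 2 within the chemotherapy range. Dag1, Sgca, Dysf and Dmd stood at -0.39, -0.23, -0.37 and 0.90 on the log2 scale without healthy libraries 1, 3 and 4. Sgcb, Sgcd and Sntb1 rose as well, at 0.88, 0.93 and 0.96.

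Excitation-contraction coupling, the step from nerve impulse to calcium release, had 7 of 25 genes lower and 0 higher, against 6.41% of all genes that fell (9 lower and 6 higher at an unadjusted p below 0.05). Cacna1s, the voltage sensor of the transverse tubule, counted 2931, 2044, 2786, 3345 and 1827 CPM in healthy muscle and 1029.7, 1310.0 and 1713 CPM with chemotherapy (log2 fold change -0.92 ± 0.21 SE, adjusted p = 0.0264). Cacng1, the gamma subunit of that channel, counted 470.2, 405, 657, 645 and 383 CPM against 279, 299 and 341 CPM (log2 fold change -0.74 ± 0.16 SE, adjusted p = 0.0261). Both fell without overlap. Cacna1s and Cacng1 stood at -0.50 and -0.36 on the log2 scale without healthy libraries 1, 3 and 4. Orai1, the store-operated calcium channel, fell by 1.16 on the log2 scale, and Scn4a, Cacnb1 and Fxyd1 fell too. Orai1 stood at -0.50 on the log2 scale without healthy libraries 1, 3 and 4. The list's median was -0.10 (-0.10 without healthy libraries 1, 3 and 4), and the other 18 members were not called.

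The ligases most used as marks of muscle breakdown did not pass the test. Fbxo32, which encodes atrogin-1, counted 289.8, 262, 209, 72.1 and 283 CPM in healthy muscle and 209, 249 and 454 CPM with chemotherapy (log2 fold change 0.32 ± 0.30 SE, adjusted p = 0.454). Trim63, which encodes MuRF1, counted 201, 237, 218, 184 and 226 CPM against 199, 220.2 and 251 CPM (log2 fold change 0.07 ± 0.11 SE, adjusted p = 0.697). The groups overlapped in both genes, with healthy library 4 lowest and chemotherapy library 15 highest for Fbxo32. Of 20 atrophy ubiquitin ligases 1 rose, Trim55, and 2 fell, where 7.3% of all genes rose and 6.41% fell. Fbxo31 counted 117, 77.4, 127, 93.5 and 74.3 CPM against 40.8, 59.8 and 76.1 CPM (log2 fold change -0.74 ± 0.18 SE, adjusted p = 0.0279), and Trim54, a relative of Trim63 at the Z-disc and on microtubules, fell by 0.57. Fbxo31 and Trim54 stood at -0.37 and -0.31 on the log2 scale without healthy libraries 1, 3 and 4. Foxo1, the transcription factor that drives atrophy genes, was at -0.53 (adjusted p = 0.071) and Mstn, the growth inhibitor myostatin, at 0.54 (adjusted p = 0.104).

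Proteasome and lysosome genes gave few calls, in both directions. Of 30 proteasome subunits 2 rose and 4 fell, where 7.3% of all genes rose and 6.41% fell. Their median was 0.06 (0.02 without healthy libraries 1, 3 and 4). Psmd2, a base subunit of the regulatory cap, counted 447, 323, 427, 363 and 376 CPM in healthy muscle and 244, 271 and 307 CPM with chemotherapy (log2 fold change -0.50 ± 0.13 SE, adjusted p = 0.0303), without overlap. Psma4, a subunit of the core ring, rose from 33.2, 73.6, 37.4, 24 and 57.6 CPM to 57.6, 95.4 and 111 CPM (log2 fold change 1.0 ± 0.27 SE, adjusted p = 0.0308), with overlap. Psmd2 and Psma4 stood at -0.36 and 0.45 on the log2 scale without healthy libraries 1, 3 and 4. Among 29 autophagy and lysosome genes 2 rose, Atg12 and Bnip3l, and 4 fell. The share that rose lay near that over all genes in both lists. Among those that fell were Gaa, which digests glycogen in lysosomes, and Tfe3 and Tfeb, transcription factors of lysosomal genes.

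Signals of stress and damage gave single changes. Gadd45a, a growth arrest gene that responds to DNA damage and to loss of nerve supply, counted 3.21, 4.94, 6.59, 4.46 and 4.30 CPM in healthy muscle and 7.04, 10.8 and 12.5 CPM with chemotherapy (log2 fold change 1.11 ± 0.24 SE, adjusted p = 0.0261), without overlap, and was at 1.16 without healthy libraries 1, 3 and 4. Gadd45g counted 8.31, 15.4, 6.88, 5.00 and 7.12 CPM against 8.72, 19.7 and 30.5 CPM (log2 fold change 1.31 ± 0.34 SE, adjusted p = 0.0301), with overlap. Gadd45g stood at 0.91 on the log2 scale without healthy libraries 1, 3 and 4. Both belong to a list of 25 DNA damage response genes, of which 2 rose and 1 fell, where 7.3% of all genes rose and 6.41% fell. Cdkn1a, a cell cycle inhibitor of that list, counted 17.2, 12.4, 17.9, 11.5 and 7.49 CPM against 6.85, 14 and 31.2 CPM and was not called (log2 fold change 0.23 ± 0.38 SE, adjusted p = 0.686).

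Among signaling genes Socs3, an inhibitor of cytokine receptors that STAT3 induces, counted 9.26, 8.51, 13.5, 13 and 6.88 CPM in healthy muscle and 2.42, 3.21 and 8.16 CPM with chemotherapy (log2 fold change -1.24 ± 0.30 SE, adjusted p = 0.0276), with library 11 alone inside the healthy range. It was the only call in 18 genes of the IL-6 family and STAT3 list. Dusp1, an early response phosphatase that glucocorticoids induce, counted 88.6, 67, 164, 181 and 109 CPM against 38.1, 49.7 and 62.4 CPM (log2 fold change -1.28 ± 0.24 SE, adjusted p = 0.0261), with no overlap. Dusp1 was the only call among 17 FoxO and glucocorticoid targets, whose median was -0.08 (0.02 without healthy libraries 1, 3 and 4). Among 21 immediate early genes 2 fell, Dusp1 included, and 0 rose. Nr1d1, the clock repressor REV-ERB alpha, counted 161, 120.0, 154, 174 and 173 CPM against 76.6, 99 and 117 CPM (log2 fold change -0.68 ± 0.19 SE, adjusted p = 0.0334), with no overlap, as the only call of 18 clock genes. Socs3, Dusp1 and Nr1d1 stood at -0.80, -0.81 and -0.59 on the log2 scale without healthy libraries 1, 3 and 4. The labels give no time of sampling. Cdkn1c, a growth inhibitor, fell by 1.46 on the log2 scale and Thrsp, a lipogenic gene, rose by 2.02, the latter from 5.86, 6.86, 4.30, 3.71 and 2.58 CPM to 3.05, 8.76 and 67.3 CPM with the highest value in library 17. Without that library the log2 fold change of Thrsp was 0.92 and the adjusted p 0.119. Cdkn1c stood at -0.75 without healthy libraries 1, 3 and 4. Gdf15, a stress hormone of cachexia, did not pass the filter. Of the other lists, neuromuscular junction genes had 1 rise and 1 fall among 18, and adipocyte and lipogenic genes 2 and 1 among 18. Chaperones had 5 and 3 among 26 and interferon response genes 2 and 1 among 28. Of 19 sterol synthesis genes 2 fell. Over all genes 7.3% rose and 6.41% fell. The neuromuscular rise was Gadd45a and the adipocyte rises were Fabp4 and Thrsp, all described above. Fabp4 and Thrsp were both highest in library 17.

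Setting chemotherapy against tumor alone, which shares the chemotherapy samples with the contrast above, edgeR called 0 of 11856 genes (233 higher and 452 lower at an unadjusted p below 0.05, smallest adjusted p 0.172). DESeq2 called 3 genes, all lower, and limma-voom called 0. The 3, named after their values were seen, were Fras1, Nr1d1 and Flnc. Fras1 counted 55.8, 75.2, 63.8, 37.2 and 54.1 CPM in tumor libraries 6 to 10, above the chemotherapy range in all 5 (log2 fold change -0.99 ± 0.17 SE, unadjusted p = 1.45e-05 by edgeR). Flnc counted 1923, 3072, 3213, 2166 and 2528 CPM there (log2 fold change -0.78 ± 0.17 SE) and Nr1d1 124, 216, 262, 115 and 234 CPM (log2 fold change -0.96 ± 0.19 SE). All 5 tumor values of Flnc lay above the chemotherapy range, and 1 tumor value of Nr1d1, library 9, lay inside it. None of Col4a1 to Col4a5 was called, with log2 fold changes of -0.34, -0.53, -0.39, -0.22 and -0.18 in that order. The median over the 23 basement membrane genes was -0.39, over splicing regulators 0.11, over cytosolic ribosomal proteins 0.20 and over all genes 0.00. Gadd45g, at 8.14, 9.15, 3.70, 10.3 and 5.02 CPM in the tumor samples, was higher with chemotherapy by 1.49 on the log2 scale and was not called.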

How the data were processed

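Total RNA of rat gastrocnemius went into a strand-specific kit that removes ribosomal RNA, per the labels' protocols. The deposited table holds raw counts per gene with no normalization, per the file headers and the whole numbers in it. Reads passed through TopHat2 2.0.10, Bowtie2, Trim Galore 0.4.1, CASAVA 1.9 and FastQC 0.11.4, per the submitters' processing notes, which give no order. Which genome build, annotation and counter made the counts is not given in the sources used here. Of 32883 entries, 388 had no gene name and were left out (0.102% to 0.373% of a library's counts).

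Libraries 11 and 12 were summed because their counts lay closest among pairs within the healthy or within the chemotherapy group (chi-square over its degrees of freedom 2.05, next 5.47 for libraries 13 and 14). The gene test was the robust quasi-likelihood test of edgeR 4.0.16 (R 4.3.3) with TMM factors and filterByExpr at a minimum count of 10. It used all 16 samples in 3 groups, left 13 residual degrees of freedom and was adjusted over 11856 genes. SE is the log2 fold change over the square root of F. Shares were compared by two-sided exact permutation tests, whose smallest p for 5 against 6 is 0.00216. Depth sets the precision of low genes, and library totals are counts over named genes.

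The comparison and the gene lists were chosen with earlier results of these data known. The naming rule took the 12 highest and 12 lowest called genes with at least 5 CPM, the 10 smallest p, the 3 smallest p and the top level of each list, and 14 genes by name, which gave 213 tested genes. Of the 108 genes followed through all alternatives, 84 came from it and 24 were list members chosen after their values were seen: Acta2, Cacna1s, Clk1, Col4a4, Cox7b, Cycs, Ddx5, Emcn, Fn1, Fras1, H3f3a, Hnrnph1, Lama2, Lamb1, Loxl2, Mtor, Ndufs8, Nid1, Pdgfra, Rbfox1, Rpl27, Rpl37a, Rps24 and Sgca. Most called genes enter the text only in counts. Other genes named with only a fold change or a list's count were chosen likewise. Alternatives were DESeq2 1.42.0 (test and size factors), limma-voom (limma 3.58.1), total counts, 2 other filters, 17 libraries, the 2 groups alone, the suffix as a term or VM libraries only, 1 surrogate variable (sva 3.50.0), no top 20 genes, and leaving out libraries.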

Additional observations from a re-analysis of the deposited data

Results flagged for a closer look

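Of 224 groups of samples checked, 13 held 1 sample far from the others by Dixon's criterion at 95%, which chance gives in about 1 in 20 groups. Chemotherapy library 11 was the far sample in 6. It was high for Col1a1 at 8156 CPM, where the other chemotherapy samples ran from 865 to 3124 CPM, and for Cdkn1a at 31.2 CPM, where they ran from 6.85 to 14.9 CPM. It was also high for Loxl2 at 39.3 CPM (others 12.2 to 22.1 CPM), Cdkn1c at 8.84 CPM (others 2.12 to 3.99 CPM) and Socs3 at 8.16 CPM (others 2.42 to 4.56 CPM). It was low for Tra2b at 26.9 CPM (others 38.2 to 40.5 CPM).

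Chemotherapy library 17 was the far sample in 4. It was high for the leukocyte marker Ptprc at 63.7 CPM (others 9.82 to 17.1 CPM), for the lipogenic gene Thrsp at 67.3 CPM (others 3.05 to 15.1 CPM) and for Fabp4 at 154 CPM (others 72.2 to 98 CPM). It was low for Fras1 at 23.8 CPM (others 28.6 to 30.6 CPM). Chemotherapy library 15 was high for the ubiquitin ligase Fbxo32 at 454 CPM (others 209 to 299 CPM).

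In healthy muscle, library 2 was high for Cep290 at 12.4 CPM, where the other 4 samples ran from 1.7 to 2.09 CPM. Healthy library 4 was high for Hist1h2bo at 33.3 CPM (others 4.12 to 12.1 CPM).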

How the results depend on the processing

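The number of calls depended on which healthy and chemotherapy libraries were used. The directions of the named genes mostly did not, in analyses that reuse these same samples. Calls were 0 higher and 0 lower with the suffix as a term (486 and 507 at an unadjusted p below 0.05), in the VM libraries (560 and 490), with 1 surrogate variable (414 and 293) and without healthy libraries 1, 3 and 4 (304 and 281). Leaving out 1 sample gave 0 to 2024 higher and 0 to 1775 lower. The 0 came from healthy libraries 1, 3 and 4 and chemotherapy libraries 13, 14 and 15, the highest counts from healthy library 2. Counts were 1505 and 1384 without chemotherapy library 11, 261 and 268 without 16, 577 and 463 without 17, and 1236 and 1162 without healthy library 5. Scaling by total counts gave 1669 higher and 348 lower and moved the median of all genes to 0.12. Without a filter 474 and 410 were called, limma-voom called 1564 and 880, and DESeq2 1404 and 1098. Against tumor alone, 8 genes were called with 1 surrogate variable, 3 by DESeq2, and 0 to 3 when 1 sample was left out, the 3 without tumor library 9.

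The 93 called genes followed were picked on the main test, and the other analyses reuse its samples. A kept direction is therefore largely built in and gives no separate support. Of these 93 genes, 89 kept their direction in each analysis that tested them. The exceptions, all with 1 surrogate variable, were Pdgfra (log2 fold change 0.022), RNase_MRP (0.069), H1f4 (0.094) and Ckm (0.0040). That setting also turned the medians of many lists. Among them were matrix glycoproteins (0.13), fibroblast markers (0.022), histones (0.025), macrophage markers (0.46), translation factors (0.01), respiratory complexes (0.01), proteasome subunits (-0.04) and chromatin coregulators (-0.07). Others were class II antigen presentation (0.55), tendon markers (0.65), the IL-6 family (0.18), immediate early genes (0.13), slow-fiber genes (-0.06), the citric acid cycle (-0.06), chaperones (-0.06) and autophagy (0.02). The uncalled genes Csf1r (0.24), Col1a1 (0.25), Fbxo32 (-0.37), Trim63 (-0.11), Mstn (-0.041), Ppargc1a (-0.22) and Igf1 (0.36) turned as well. With the suffix as a term Col1a1 stood at 0.049, Trim63 at -0.014 and Igf1 at 0.017. In the VM libraries Tnnt1 stood at -0.10, Ppargc1a at -0.037 and Myh4 at 0.034. Without healthy libraries 1, 3 and 4 Trim63 stood at -0.053 and Igf1 at 0.099, and with total counts Igf1 at 0.12 and Myh4 at 0.14. Myh4 was 0.0027 with DESeq2's size factors, 0.0026 by DESeq2, 0.00025 without a filter, 0.0018 with only the compared groups and 0.043 by limma-voom. Leaving out 1 sample, Myh4 ranged from -0.12 to 0.13, Igf1 from -0.11 to 0.076 and Cdkn1a from -0.16 to 0.36, negative without chemotherapy library 11. The causes were not tested.

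The share of counts in the 20 most abundant genes differed by -0.229 percentage points in the VM libraries and -2.04 without healthy libraries 1, 3 and 4 (exact permutation p = 0.321). For small noncoding RNA the share differed by -0.246 and -0.0809 points (exact permutation p = 0.464 for the latter). In the VM libraries, with 1 healthy sample against 5, the exact permutation test cannot give a p below 0.167, so it is no test there. No paired analysis was possible because the groups share no replicate numbers. The VM comparison holds 1 healthy sample, assumed to vary like the others. At 3020821 to 15719080 counts a library, a gene of 5 CPM rests on few reads.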
